A study of Mus musculus with 6 samples.

Results

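In hippocampal astrocytes, 20 genes lay at either of 2 clearly separate levels, and which libraries were high and which were low did not follow the treatment. The genes were chosen by their own normalised read levels in these libraries. Of 24421 genes in the table, 7716 averaged 20 or more CPM (read counts scaled to library size) over the 6 libraries. The 6 values of each were put on the scale of log2(CPM + 0.1), sorted and split at their largest gap. That gap was at least 1, a doubling of the level, in 76 genes. In 34 of these a single library stood apart from the other 5, and in 42 there were 2 to 4 libraries on each side. In 30 of the 42 the values within a side spread over at most 0.5. For 10 of the 30 the sides were exactly the PBS and the DT libraries, Gfap, Serpina3n and Mdm4 among them, and these were set aside. The remaining 20 genes made up 0.259% of the 7716. Because the values chose the genes, their gaps, sides and levels are given as a description without a test.

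The libraries came from adult Siglech dtr/dtr mice of the C57BL/6 strain, which carry a diphtheria toxin (DT) receptor at the microglial gene Siglech. Mice received PBS or DT at 50 µg/kg intraperitoneally, and hippocampal astrocytes were isolated 2 days later with magnetic beads against the astrocyte surface antigen ACSA-2, after beads against CD11b had removed microglia. The 3 PBS and 3 DT libraries were each made from a pool of 2 mice, so a library gives the mean of its pool and not the level of a single animal. Both groups carried the receptor alleles, and no wild-type library was analysed here.

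Between 21704891 and 32933975 reads per library were recovered from the deposited CPM, with library 2 of each group the deepest. The summed CPM of 10 astrocyte markers, from Gfap to Slc1a2, lay between 61711 and 71825 in all 6 libraries. Slc1a2 alone gave 35728 to 41484 CPM of this sum, which therefore says little about the markers read at lower levels. The sum of 10 microglial markers was 165 to 205 CPM after PBS and 70.2 to 82.5 CPM after DT. Of 53 markers of 10 cell types, 30 averaged 20 CPM or more and 5 of these had a gap of at least 1. Gfap and Ctss followed the treatment, the sides of Mrc1 also did but with a range over 0.5, and in Ttr and Aqp4, with gaps of 2.19 and 1.14, a single library stood apart, so none of the 5 met the rule. In bulk RNA, fewer cells of a type and less RNA per cell cannot be told apart.

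As background, the reads counted for a gene in bulk RNA are the sum over all its transcripts and all cells in the tube. Libraries made from the same cell type of one inbred strain usually give similar sums for a well-read gene, and most genes produce more than one transcript. The 20 genes are not a pathway. By their known roles they are proteins of the cell surface and its synapses or myelin, signalling adaptors and kinases, transcriptional regulators, enzymes, an actin capping protein and a read-through transcript.

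The distance between the 2 levels was large beside the usual spread, as the rule requires. The rule kept only genes with a gap of at least 1 and a range within a side of at most 0.5. The gap of the 20 genes ran from 1.02 to 3.82 with a median of 1.27 (log2), while the median gap of all 7716 genes was 0.12 and its 95th percentile 0.44. The upper mean was 2.22 to 16.4 times the lower mean, with a median ratio of 2.78, and 8 genes had a ratio of at least 3. The wider side of a gene spread over 0.09 to 0.46 (log2). Even in the lower libraries no gene had fewer than 191 recovered reads, so the levels do not rest on a handful of reads. These reads come from the authors' quantification per gene and were not counted here. Its allotment of reads among overlapping genes was not tested.

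**Figure D1:**
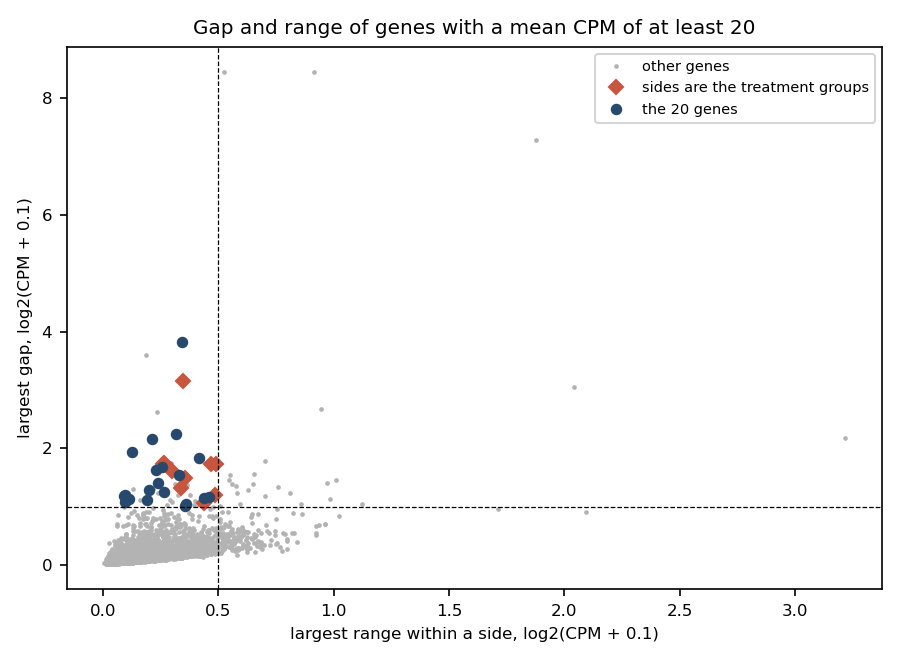
Each point is a gene that averaged 20 CPM or more, with the largest range within a side on the horizontal axis and the largest gap between sides on the vertical axis, both in units of log2(CPM + 0.1). Dashed lines mark the limits of 0.5 and 1, and the 20 genes (dark circles) lie in the same corner as the 10 genes whose sides are the treatment groups (diamonds), above the mass of other genes.

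Among proteins of the cell surface, Dag1 had the widest gap of all 20. Dag1 encodes dystroglycan, which ties laminin outside the cell to the dystrophin complex inside and sits at the vascular endfeet of astrocytes. It was read at 31.8, 451 and 456 CPM in the 3 PBS libraries and at 504, 25.1 and 457 CPM in the 3 DT libraries. Thus PBS library 1 and DT library 2 were low and the other 4 high. The high libraries averaged 467 ± 24.5 CPM (SD, n = 4) and the low ones 28.5 ± 4.76 CPM (SD, n = 2), a 16.4-fold ratio. Dag1 lies on the minus strand of chromosome 9, at chr9:108204634-108263958 (mm10). The partners of dystroglycan did not share its pattern. Dmd, which encodes dystrophin, stayed between 327 and 356 CPM, and Lamb2, a laminin chain, between 241 and 269 CPM.

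Mal, a proteolipid of compact myelin, was read at 46.1, 39.4 and 48.5 CPM after PBS. After DT it was read at 8.34, 36.3 and 10.1 CPM. All PBS libraries were high, together with DT library 2, so the groups did not overlap and yet one DT library stood with the PBS side. The upper mean was 42.6 ± 5.71 CPM (SD, n = 4) and the lower 9.21 ± 1.23 CPM (SD, n = 2). Mbp, a main gene of myelin, did not separate in this way and ran from 77.1 to 140.5 CPM, with 89.2 CPM in DT library 2. The summed level of 6 oligodendrocyte markers was 389 to 499 CPM after PBS and 347 to 429.9 CPM after DT, and it did not follow the sides of Mal. Its lowest value was in DT library 3, where Mal was low, but in DT library 1, where Mal was low too, it was 429.9 CPM, above the 389 and 391 CPM of PBS library 3 and DT library 2, where Mal was high. The part of oligodendrocyte RNA in the levels of Mal was not tested.

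Nlgn1 encodes neuroligin-1, an adhesion protein of synapses. It was read at 130.4, 51.6 and 51.8 CPM after PBS and at 134, 111 and 105 CPM after DT. PBS library 1 stood with the 3 DT libraries, the low side held PBS libraries 2 and 3, and the groups overlapped. With a gap of 1.02 it was the gene closest to the limit. Its paralogs showed no such gap, Nlgn2 lying between 62.8 and 78.5 CPM and Nlgn3 between 141 and 158 CPM.

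Gpr19, an orphan G protein-coupled receptor, was the gene with the lowest mean, 20.2 CPM. Its values were 30.7, 9.16 and 27.6 CPM after PBS and 12.4, 12.2 and 29.4 CPM after DT. Each side held libraries of both groups. The lower side of Gpr19 spread over 0.44 (log2), one of the widest among the 20.

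**Figure D2:**
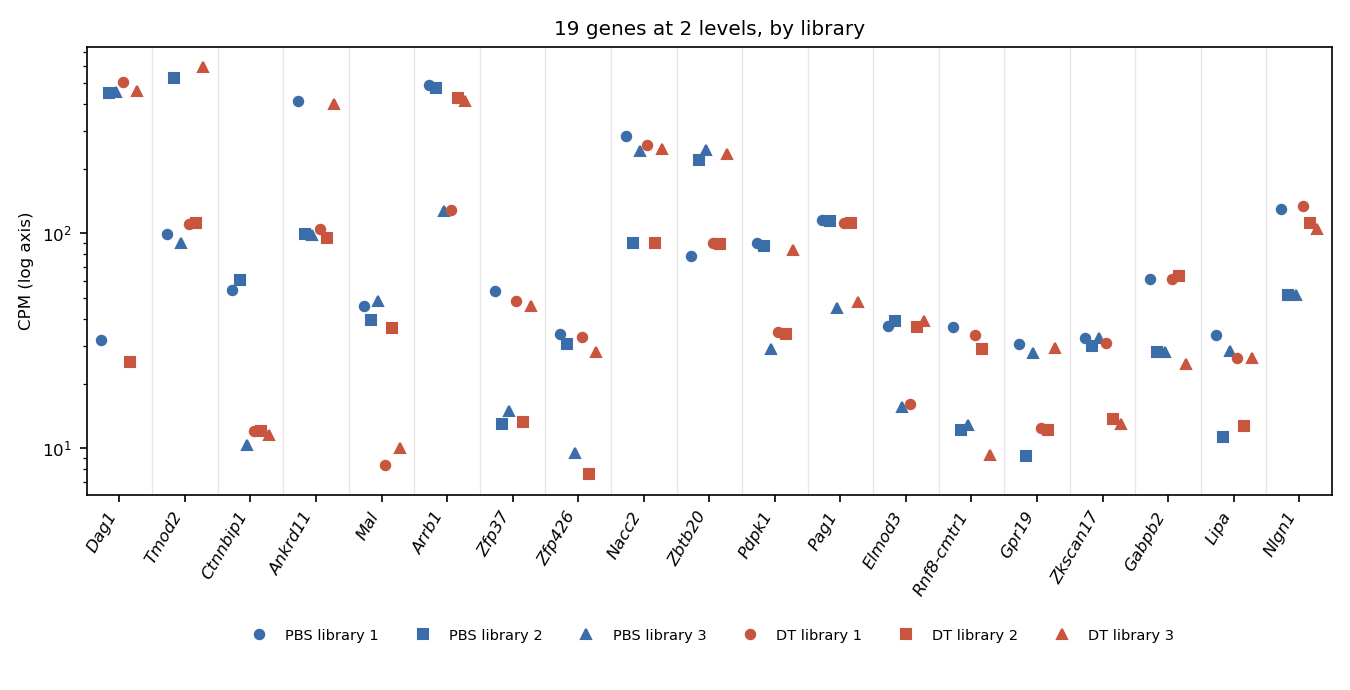
CPM (log axis) of 19 of the 20 genes in each of the 6 libraries, ordered from left to right by the size of the gap, with PBS libraries in blue, DT libraries in red and the library number as the marker shape. Within each gene the points form 2 tight clusters that mostly mix the colours, which follows from the rule that chose the genes. In Dag1, for example, PBS library 1 (31.8 CPM) and DT library 2 (25.1 CPM) sit far below the rest.

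Among signalling proteins, Arrb1 and Elmod3 separated the libraries in the same way. Arrb1 encodes beta-arrestin 1, which uncouples activated receptors from G proteins. It was read at 491, 473 and 127 CPM after PBS and at 128, 427 and 411 CPM after DT. PBS library 3 and DT library 1 were thus low and differed from each other by less than 1 CPM, and the upper mean of 451 ± 37.9 CPM (SD, n = 4) was 3.54 times the lower mean of 127 ± 0.56 CPM (SD, n = 2). Elmod3, whose protein acts on Arl-type small GTPases, was low in the same pair at 15.5 and 16.1 CPM. In the other 4 libraries it lay between 36.6 and 39.0 CPM. Arrb1 is on chromosome 7 and Elmod3 on chromosome 6. Arrb2, the paralog of Arrb1, stayed between 13.5 and 17.8 CPM.

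Ctnnbip1, an inhibitor that keeps beta-catenin from its transcription factor partners, was at 54.3 and 60.6 CPM in PBS libraries 1 and 2. It was at 10.3 CPM in PBS library 3 and between 11.5 and 12 CPM in the 3 DT libraries. The high side held PBS libraries only, and PBS library 3 stood with all DT libraries. Ctnnb1, the gene for beta-catenin, lay between 297 and 343 CPM.

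Pdpk1, the kinase that activates Akt, gave 89.7, 86.8 and 29.0 CPM after PBS and 34.9, 34.2 and 83.7 CPM after DT. Its sides held 3 libraries each and both treatments. Akt1 lay between 105 and 116 CPM and Akt2 between 248 and 288 CPM in the same libraries.

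Pag1 encodes a membrane adaptor that recruits the kinase Csk. It was at 115, 114 and 45.1 CPM after PBS and at 111, 112 and 48.2 CPM after DT, so that library 3 was low in each group. The upper libraries differed by only 1.68 CPM (SD, n = 4) around a mean of 113 CPM. Csk showed no gap of this kind and lay between 28.5 and 34.0 CPM.

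Transcriptional regulators were the largest class with 7 genes. By symbol, 4 of the 20 genes (20%) were zinc finger genes of the Zfp, Zbtb and Zkscan series, compared with 182 of the 7716 (2.36%), a count that is given without a test. Ankrd11, a chromatin regulator that binds histone deacetylases, was read at 414, 99.2 and 98.6 CPM after PBS and at 104, 95.6 and 399 CPM after DT. PBS library 1 and DT library 3 were high, at a mean of 407 ± 10.6 CPM (SD, n = 2), and the other 4 lay at 99.4 ± 3.66 CPM (SD, n = 4). Its paralog Ankrd12 lay between 159.5 and 183 CPM.

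Zbtb20, a zinc finger repressor needed for the development of the hippocampus, was at 78.4, 219 and 244 CPM after PBS. After DT it was at 90.1, 88.8 and 233 CPM. PBS library 1 and DT libraries 1 and 2 were low, at 85.8 ± 6.44 CPM (SD, n = 3), and the groups overlapped. BC002163, which overlaps Zbtb20 on the same strand, had another pattern. Its values were 52.3, 27.8 and 24.2 CPM after PBS and 20.8, 23.0 and 19.4 CPM after DT. Gm19522, on the opposite strand, lay between 7.11 and 12.2 CPM.

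Gabpb2 and Rnf8-cmtr1 had the sides of Zbtb20 turned round: the 3 libraries in which Zbtb20 was low were those in which these genes were high. Gabpb2 encodes a beta subunit of GA-binding protein, which pairs with the DNA-binding Gabpa. It lay between 61.1 and 63.3 CPM in its upper libraries and between 24.6 and 28.1 CPM in its lower ones. Gabpa lay between 109 and 128 CPM.

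Nacc2, a BTB domain repressor, was read at 284, 90.0 and 240.4 CPM after PBS and at 257, 90.3 and 246 CPM after DT. Library 2 was thus low in each group, at 90.2 ± 0.18 CPM (SD, n = 2) against 257 ± 19.3 CPM (SD, n = 4). Its paralog Nacc1 lay between 159 and 183 CPM. Lipa, described below, had the same sides.

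The other zinc finger genes each had sides of their own. Zfp37 was at 54.1, 13.0 and 14.9 CPM after PBS and at 48.2, 13.2 and 46.1 CPM after DT. Zfp426 was at 34.1, 30.5 and 9.55 CPM after PBS and at 33.0, 7.57 and 27.9 CPM after DT. In both genes the high and the low side held libraries of either treatment. Zkscan17 was at 32.5, 30.1 and 32.5 CPM after PBS and at 30.7, 13.7 and 13.0 CPM after DT. DT libraries 2 and 3, in which Zkscan17 was low, were also those with the highest sum of 6 neuronal markers, 289 and 295 CPM against 170 to 231 CPM elsewhere. The part of neuronal RNA in the levels of Zkscan17 was not tested. 4933439C10Rik, which overlaps Zkscan17 on the opposite strand, lay between 7.29 and 11.3 CPM.

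Tmod2 encodes tropomodulin-2, which caps the pointed ends of actin filaments. It was read at 99.4, 529.7 and 89.7 CPM after PBS and at 110.4, 112 and 592 CPM after DT. PBS library 2 and DT library 3 were high, 5.45 times the mean of the other 4. Tmod3, its neighbour on chromosome 9, lay between 40.5 and 50.7 CPM.

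Lipa encodes lysosomal acid lipase, which frees cholesterol from its esters. It was at 33.8, 11.2 and 28.4 CPM after PBS and at 26.3, 12.7 and 26.3 CPM after DT, low in library 2 of each group as Nacc2 was. These libraries were also the 2 deepest, with 32933975 and 30339811 reads against 21704891 to 23336957 in the others. Whether depth or the replicate number has a part in these levels was not tested. Npc1 and Npc2, which carry the cholesterol onward from the lysosome, lay between 199.7 and 236 CPM and between 56.8 and 64.8 CPM.

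The promoters of Nacc2 and Lipa are shown because both genes were low in the same pair of libraries, and that of Dag1 because its levels were farthest apart. Each sequence is the 250 bases before a start listed by RefSeq on GRCm38.p6, the first entry where a gene has several. Sequences run 5′ to 3′ on the minus strand, on which all 3 genes lie: chr2:26122812-26123061 for Nacc2, chr19:34527475-34527724 for Lipa and chr9:108263959-108264208 for Dag1. In GENCODE M21 Nacc2 reaches base 26123220 and has 8 starts, so its window lies inside the gene and other starts are not shown. Capitals mark the letters GGGCGG and CCAAT, or their reverse complements CCGCCC and ATTGG.
Nacc2: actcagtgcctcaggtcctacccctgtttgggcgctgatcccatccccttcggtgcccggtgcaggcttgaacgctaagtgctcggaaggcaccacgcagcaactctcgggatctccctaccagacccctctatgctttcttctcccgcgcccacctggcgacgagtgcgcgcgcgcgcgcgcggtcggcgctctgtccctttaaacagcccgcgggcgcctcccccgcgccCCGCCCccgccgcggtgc
Lipa: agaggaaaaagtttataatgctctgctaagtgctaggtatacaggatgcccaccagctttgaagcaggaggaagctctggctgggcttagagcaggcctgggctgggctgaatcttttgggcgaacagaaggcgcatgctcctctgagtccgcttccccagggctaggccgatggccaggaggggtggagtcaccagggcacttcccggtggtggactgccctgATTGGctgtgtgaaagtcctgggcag
Dag1: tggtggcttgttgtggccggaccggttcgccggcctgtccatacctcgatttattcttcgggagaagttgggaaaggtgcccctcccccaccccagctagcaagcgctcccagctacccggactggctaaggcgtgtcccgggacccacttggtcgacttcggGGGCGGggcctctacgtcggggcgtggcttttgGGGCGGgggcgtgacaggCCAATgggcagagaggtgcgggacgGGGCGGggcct
The windows of Nacc2 and Lipa differed in composition although the genes shared their sides: GC made up 69.6% and 58.0% of the bases, with 30 and 5 CG pairs. Nacc2 held 1 GGGCGG and no CCAAT, Lipa held 1 CCAAT and no GGGCGG, and Dag1 held 3 and 1. On either strand GGGCGG occurs in 32.7% and CCAAT in 33.8% of all RefSeq promoter windows of this length. A match is a description of the letters and not a bound site.

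Rnf8-cmtr1 is the read-through transcript of the neighbouring genes Rnf8, a ubiquitin ligase of the DNA damage response, and Cmtr1, an mRNA cap methyltransferase. RefSeq lists it as the long non-coding RNA Gm28043 at chr17:29614789-29705979 (GRCm38), a stretch that covers both genes. It was at 36.8, 12.2 and 12.9 CPM after PBS and at 33.6, 29.0 and 9.33 CPM after DT. Rnf8 ran the other way: it was at 23.5, 39.5 and 34.6 CPM after PBS and at 29.3, 21.7 and 33.9 CPM after DT. The 3 libraries with the most Rnf8-cmtr1 were thus the 3 with the least Rnf8. Cmtr1 lay between 74.8 and 94.1 CPM. The sum of the 3 genes moved far less than the read-through transcript, from 135 to 142 CPM, and the groups overlapped in it. Cmtr1 was the largest part of that sum. Rnf8 and Rnf8-cmtr1 without Cmtr1 summed to between 43.3 CPM (DT library 3) and 62.9 CPM (DT library 1), so Rnf8 did not fully offset the read-through transcript. The genes overlap on the same strand, so the split of reads between them is uncertain.

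**Figure D3:**
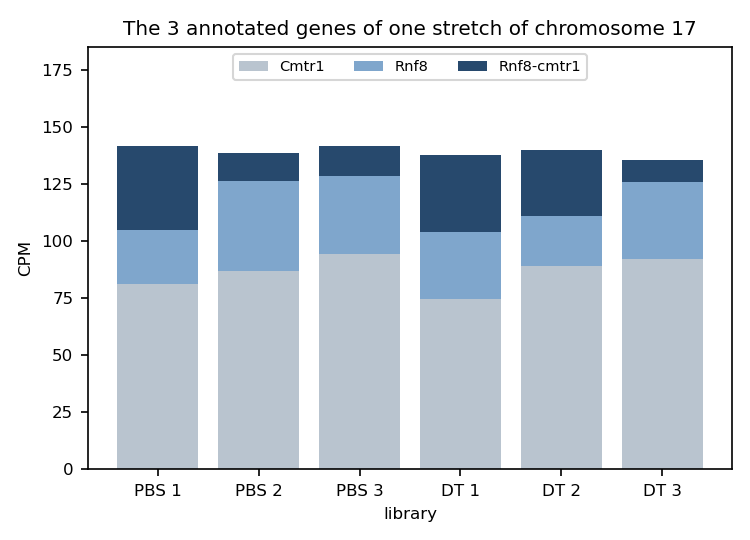
CPM of Cmtr1, Rnf8 and Rnf8-cmtr1 stacked for each of the 6 libraries. The dark part (Rnf8-cmtr1) changes from 9.33 to 36.8 CPM while the full height stays between 135 and 142 CPM.

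The 20 genes did not split the libraries in one common way. They used 17 different divisions of the 6 libraries, of which 14 were used by 1 gene each and 3 by 2 genes each: Arrb1 with Elmod3, Gabpb2 with Rnf8-cmtr1, and Nacc2 with Lipa. High libraries numbered 2 in 4 genes, 3 in 6 genes and 4 in 10 genes. More PBS than DT libraries were high in 7 genes, more DT than PBS libraries in 4, and equal numbers in 9. The number of the 20 genes that were high was 16, 12 and 8 in the PBS libraries and 10, 7 and 13 in the DT libraries. No library was high or low throughout.

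**Figure D4:**
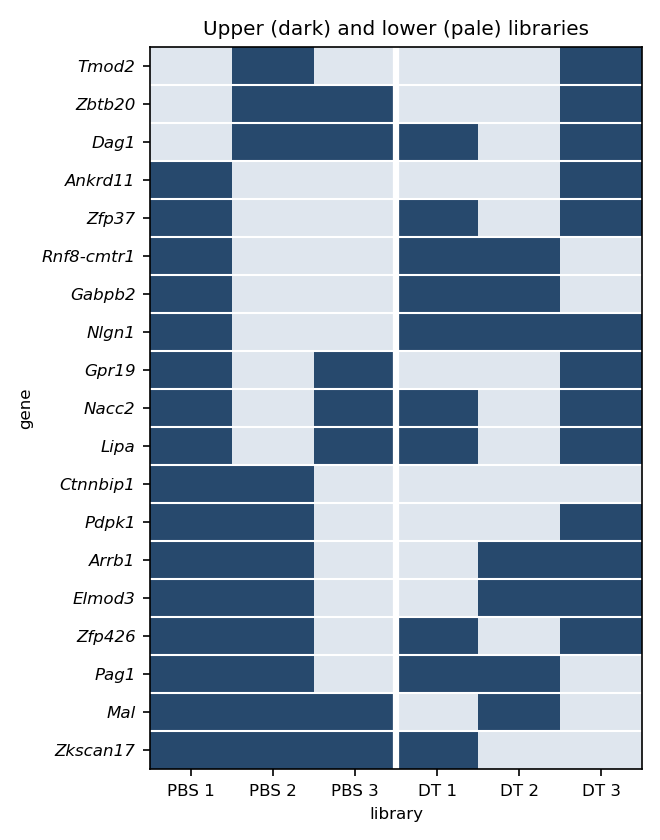
For 19 of the 20 genes (rows) the libraries on the upper side are dark and those on the lower side pale, with the 3 PBS libraries left of the white line and the 3 DT libraries right of it. The rows show 16 different patterns, and PBS library 1 is dark in 16 rows while DT library 2 is dark in 7.

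Pairs of libraries from one treatment were on the same side in a median of 8.5 of the 20 genes, with a range of 6 to 11. Pairs that shared a library number were together in a median of 9, and all other pairs in a median of 9.5. The rule had removed the genes whose sides were the treatment groups. This lowers the count for pairs from one treatment, so nothing is read from the comparison of these medians. Pag1, Nacc2 and Lipa were the genes in which a library number set both its libraries apart. Of the summed markers of 10 cell types, 6 set 1 library against 5 and 2 followed the treatment, divisions that the rule removes, so that these sums could match none of the 20 genes. Of the remaining 2, the neuronal sum had the sides of Zkscan17 turned round, and the sum for oligodendrocyte precursors matched none. Sums of 4 choroid plexus markers, for example, ran from 43.7 to 1477 CPM, with the lowest value in PBS library 3.

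The 5 gene lists drawn up for known sources of difference between mice held no gene of the 20. These lists covered sex-linked genes, differences between C57BL/6 substrains, the circadian clock, immediate early genes and splicing factors. Of their listed genes, 40 had a mean CPM of at least 20 and 0 had a gap of at least 1, where 0.985% of the 7716 genes did, so that a count of 0 among 40 is near the background and says nothing particular about these lists. The largest gap in the clock list was 0.26 (Per1), in the substrain list 0.42 (Nnt) and in the immediate early list 0.54 (Fosb), on the log2 scale. A further 30 relatives and partners of the 20 genes were chosen after their values had been seen. Of these, 25 had a mean CPM of at least 20 and 0 had a gap of at least 1, with a largest gap of 0.68 in Elmod2, the paralog of Elmod3. As 0.985% of the 7716 genes had such a gap, a count of 0 among 25 is near the background too. The levels of relatives given above are a description.

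Position on the chromosome was no common feature. The 19 genes with a position in GENCODE M21 lay on 11 chromosomes, and none lay within 100 kb of another. Within 100 kb there were 68 other genes that averaged 5 CPM or more. None differed by 1 or more (log2) between the sides of its neighbour, and the differences ran from -0.45 to 0.62. The largest was that of Zfp266 beside Zfp426, which lay at 39.5 CPM in PBS library 3 and between 85.4 and 104 CPM in the other 5. Camsap1, 72253 bases from Nacc2, had the sides of Zbtb20 instead. It was at 34.1, 63.0 and 58.7 CPM after PBS and at 35.4, 32.8 and 67.7 CPM after DT. All 6 values of a neighbour kept to the sides of the nearby gene, in the same or the opposite direction, in 8.82% of cases, where the same share over all genes had a median of 9.59% per division.

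Transcript numbers and lengths are given as a description, without a test. The 19 genes had a median of 7 annotated transcripts in GENCODE M21, against 6 for all genes that averaged 20 CPM or more. In RefSeq the medians were 7 and 4. Their median span was 45.7 kb against 32.2 kb. Of the 16 genes with a RefSeq promoter entry, 9 (56.3%) had 2 or more entries, against 22.0% of all. At least 1 other gene, on either strand, overlapped 7 of the 19 (36.8%), against 30.2% of all. Overlap on the same strand was found for 3 of the 19 (15.8%), namely Arrb1, Ctnnbip1 and Zbtb20, against 8.55% of all. Rnf8-cmtr1 had no position there under this symbol and is left out of these counts, although it covers Rnf8 and Cmtr1. The genes that overlap Arrb1 and Ctnnbip1 averaged under 5 CPM. How reads were split between overlapping genes was not tested.

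The values per gene in CPM and in TPM (transcript abundance scaled to length and library) moved together in these genes. The ratio of TPM to CPM of a gene changed by at most 0.06 (log2) over the 6 libraries in the 20 genes, with a median of 0.0050. The levels differed by 1.15 or more. Over the 7715 genes with positive values of both, the median change of this ratio was 0.0022 and the 95th percentile 0.079. The ratio was thus nearly fixed for most genes, whatever their levels. CPM and TPM both come from the authors' quantification of the same reads, so TPM is no separate measure of these levels.

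The comparison of DT with PBS was also made for the 20 genes, although the rule had already removed genes whose sides were the treatment groups, so nothing is read from the count. With limma on log2(CPM + 0.1), 0 of the 20 passed an adjusted p-value of 0.05, where 0.713% of 15137 tested genes did (84 or 0.555% higher and 24 or 0.159% lower after DT). Neither edgeR nor DESeq2 called any of the 20, with 0.733% and 2.15% of genes called in all. At an unadjusted p-value under 0.05 limma counted 4 of the 20, among them Mal, Zkscan17 and Ctnnbip1, against 10.4% of all genes. The differences of these 3 between DT and PBS were -1.61, -0.84 and -1.45 (log2), with standard errors of 0.46, 0.29 and 0.57 and adjusted p-values from limma of 0.270, 0.368 and 0.429. In 2 of the 20, one of them Mal, the groups did not overlap, where 16.3% of the genes tested had such groups.

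Leaving out a single library changed the call for 5 genes. Without DT library 2, Mal was called lower by limma. Without DT library 1 the same held for Zkscan17, and without PBS library 3 for Ctnnbip1. Without PBS library 1, 2 genes were called, Nlgn1 among them. Without PBS library 2 or DT library 3 none of the 20 was called. In each of the 5 cases the library left out was the only one on the side of the other treatment, and without it the sides that the rule selected are the treatment groups. These calls therefore follow from the values that chose the genes and are no separate evidence of a difference between treatments.

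Within a side the libraries of the treatments lay close together, as the limit of 0.5 on its range requires. There were 35 sides with libraries of both groups. Within them the log2 difference of DT from PBS ran from -0.42 to 0.42 with a median of -0.04, and it was at most 0.2 in size in 25 of the 35. Over all libraries together the same genes gave differences from -1.61 to 0.72. Nacc2, for instance, was at 90.0 CPM after PBS and 90.3 CPM after DT on its lower side. Arrb1 was at 127 and 128 CPM. Of the 18 upper sides 13 were lower after DT, and of the 17 lower sides 6 were.

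**Figure D5:**
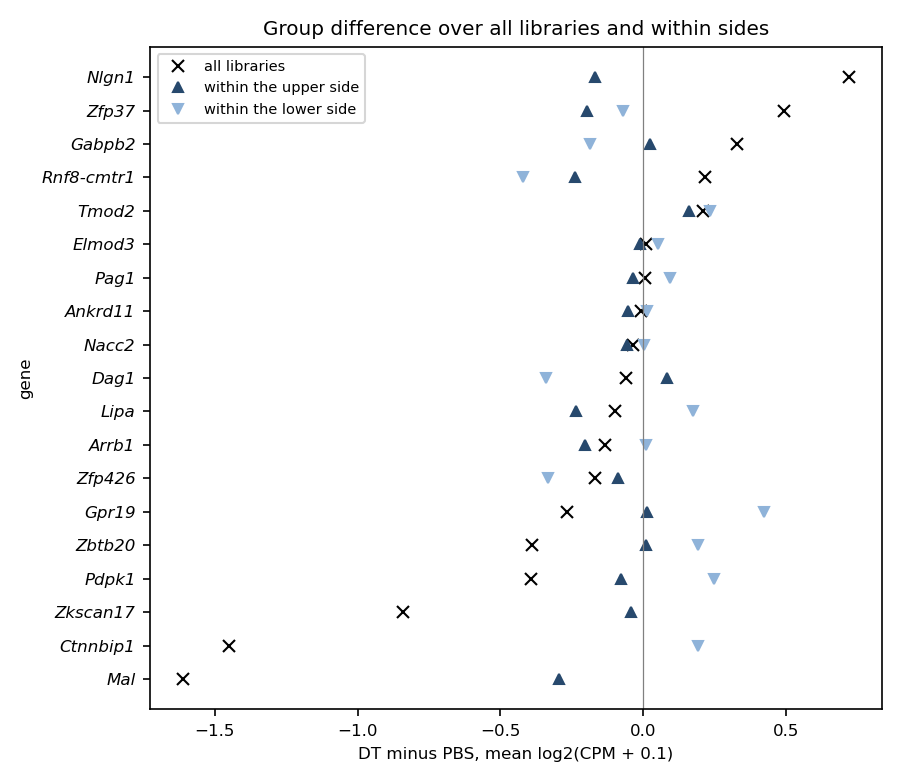
Difference of DT from PBS in mean log2(CPM + 0.1) for 19 of the 20 genes, over all libraries (crosses) and within the upper (dark triangles) and lower (pale triangles) side where both groups are present. Crosses reach from -1.61 (Mal) to 0.72 (Nlgn1), while triangles stay between -0.42 and 0.42.

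Values on the near side of each limit continued on its far side. With gaps of 0.93, 0.90 and 0.89, Wwtr1, Mef2c and Slc25a44 fell short of the limit of 1, next to Nlgn1 and Lipa inside it at 1.02 and 1.04. Wwtr1, a transcriptional coactivator of the Hippo pathway, had the sides of Arrb1 and Elmod3, with 49.6 CPM in PBS library 3, 53.0 CPM in DT library 1 and 101 to 111 CPM elsewhere. Mef2c, a transcription factor, was at 44.6, 41.4 and 47.0 CPM after PBS and at 20.7, 22.1 and 44.4 CPM after DT. Slc25a44, a mitochondrial carrier, had the sides of Zkscan17. It was at 41.7 and 45.4 CPM in DT libraries 2 and 3 and at 84.5 to 87.5 CPM in the others.

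On spread, Atp6v0c-ps2, Mcfd2 and 1700071M16Rik were the first outside at 0.52, 0.55 and 0.63, against 0.46, 0.44 and 0.42 for Rnf8-cmtr1, Gpr19 and Mal. The pseudogene Atp6v0c-ps2 was at 88.4, 0.030 and 81.5 CPM after PBS and at 0.087, 65.0 and 0.044 CPM after DT. Its parent gene Atp6v0c, a proton pump subunit, was at 2.76, 26.4 and 2.66 CPM after PBS and at 97.2, 23.5 and 32.7 CPM after DT. Reads of such near-identical copies can be split between them, so both levels are uncertain. Mcfd2 was at 15.4, 10.5 and 48.1 CPM after PBS and at 44.8, 45.5 and 10.9 CPM after DT, and 1700071M16Rik had the sides of Pag1, with 10.01 CPM in PBS library 3, 7.33 CPM in DT library 3 and 24.7 to 38.3 CPM elsewhere.

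On mean level, Sh2b3, Dcun1d3 and Pknox1 missed the limit of 20 CPM at 18.1, 15.5 and 15.3 CPM. Sh2b3, an adaptor of cytokine receptor signalling, was at 8.70 and 8.65 CPM in PBS libraries 1 and 2 and at 20.6 to 26.0 CPM in the others, the sides of Ctnnbip1 turned round. Dcun1d3 had the sides of Nlgn1. It was at 5.61 and 7.44 CPM in PBS libraries 2 and 3 and at 17.5 to 22.4 CPM elsewhere. Pknox1, a homeobox gene, had the sides of Mal, with 8.69 and 8.02 CPM in DT libraries 1 and 3 and 18.3 to 19.7 CPM elsewhere.

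Counting genes with a gap of at least 0.5, other members of the 20 included, 16 of the 20 had at least 1 other gene with the same sides and 18 had at least 1 with the sides turned round. With gaps of 0.5 to under 1 only, which leaves out the 20 themselves, the counts were 13 and 16. Nlgn1 had the most same-sided genes at a gap of at least 0.5, with 5 (Adnp, Dpm1-adnp, Ergic2, Nfix and Slc39a14). Taking all genes whatever their gap, the division used by a member was shared by 0.259% to 2.94% of the 7716 genes. That share is for any gap. The counts at a gap of at least 0.5 were not set against divisions that no member used, so nothing is read from them.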

How the data were processed

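RNA of isolated astrocytes was sequenced in 3 PBS and 3 DT libraries (stranded SMARTer kit). According to the methods, the authors trimmed reads with Trim Galore 0.5.0, mapped them to mm10 with HISAT2 2.1.0, removed ribosomal reads with bedtools 2.25.0, quantified genes with StringTie 1.3.5 and compared groups with edgeR 3.24.3 in R 3.5.1. The annotation release is not given in the sources used here. The authors deposited a signal per gene in CPM, which are relative to library sizes scaled by factors between 0.974 and 1.02, and TPM per gene. Deposited columns with the authors' own comparison (p and q values, log fold change) were left out. Of the gene names, 27 read as dates and 2 were repeated.

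Whole reads were recovered from the steps of the CPM (100% of values within 0.05 of a read). The rule for 2 levels used a mean CPM of at least 20, log2(CPM + 0.1), a gap of at least 1, 2 to 4 libraries on each side and a range of at most 0.5. The genes and lists were chosen with earlier results of these data known. DT and PBS were compared at a mean CPM of at least 0.5 in R 4.3.3 by two-sided limma 3.58.1, letting the variance follow the level, and p-values were adjusted after Benjamini-Hochberg. Such fold changes understate those of low genes. According to the methods, the pools of 2 mice came from 3 independent experiments. Whether a PBS and a DT library shared an experiment is not stated, and the main limma fit did not pair them. Alternatives included edgeR 4.0.16 (quasi-likelihood), which called 111 genes on the recovered reads, and DESeq2 1.42.0, TPM, other thresholds and each library left out. Rule and limma fit were tested on simulated data. Positions are from GENCODE M21, promoters from RefSeq GRCm38.p6. The values of 1 of the 20 genes, and of some related genes, are not reported here, and the other 19 are named. Library values are given for the gene with the largest gap of each division, the 5 highest means and the 3 smallest gaps. They are also given for overlapping genes that averaged 5 CPM or more, and the 3 genes just outside a limit. Other named genes were chosen after their values were seen.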

Additional observations from a re-analysis of the deposited data

How the results depend on the processing

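The number of genes at 2 levels was 20 as reported and 14 to 18 when each library was left out, with 12 to 16 of the 20 among them. It moved to 9 at a mean CPM of at least 50, to 31 with a gap of at least 0.8, to 8 with a gap of at least 1.5, to 12 with a range of at most 0.3, and to 41 with 1 to 5 libraries on each side, a choice made after seeing the data. With TPM there were 15, 14 of them among the 20. The other 6 alternatives gave 19 to 24. Of 40 recomputed level differences, 39 moved by less than the spread within sides, and that of Elmod3 moved to 1.21 with a pseudocount of 1.

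Higher and lower genes after DT (84 and 24 by limma) became 5 and 1 with no filter, 227 and 98 with DESeq2, and 58 and 12 at a mean CPM of at least 20. Leaving out 1 library gave 39 (without DT library 1) to 72 higher and 9 (without PBS library 2) to 20 lower genes. Higher genes numbered 40 without DT library 2. Lower genes numbered 11, 10 and 10 without PBS library 1, PBS library 3 and DT library 2. The causes were not tested. Of the 20 genes, 0 were called by limma, edgeR and DESeq2 (4, 4 and 2 at an unadjusted p-value under 0.05), and 0 to 2 when 1 library was left out (2 without PBS library 1).

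With the replicate number as a replicate block, 79 genes were higher, 30 lower and 0 of the 20 called. Deviations of same-numbered libraries correlated at 0.16, -0.25 and 0.06 over 7716 genes, and 1 of 6 libraries correlated best with its own number. The labels do not say whether equal numbers mark one experiment, and these correlations do not settle it. With pools of 2 mice, 3 libraries per group limit the precision.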
